A study of Homo sapiens with 2 samples.

Results

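MALAT1, NEAT1, MIAT and KCNQ1OT1 are long noncoding RNAs (lncRNAs) that stay in the nucleus. They were chosen by name, as 4 of the 33538 genes counted, and were described in single cells of SH-SY5Y (SY5Y), an established human neuroblastoma line with features of sympathetic neuroblasts. The choice of these genes, and of mitochondrial share, depth and cell cycle as the axes of description, was made with earlier results of the same data in view, so their levels are given as a description, with no test. The cells were untreated and not synchronised, and came from 1 culture that was divided into 2 flasks, SplitA and SplitB. Each flask carried 1 hashtag (an antibody with a DNA barcode, TotalSeq-A0251 for Hashtag 1 and TotalSeq-A0252 for Hashtag 2), and both were read in 1 CITE-seq experiment, which counts mRNA and antibody barcodes in the same cells. Cells were selected on their hashtag counts: a hashtag singlet had at least 3 times as many counts of 1 hashtag as of the other, and a count of the other within the limit used in the study's code. This left 1179 SplitA and 1605 SplitB cells, 2784 in all, and set aside 95 multiplets.

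MALAT1 gathers in nuclear speckles, the bodies that store splicing factors. NEAT1 is the RNA scaffold of paraspeckles, bodies built on its long form together with proteins such as NONO and SFPQ. KCNQ1OT1 is an imprinted antisense RNA, made from the paternal chromosome, which silences neighbouring genes on the same chromosome, among them the cell cycle inhibitor CDKN1C. MIAT is found in a nuclear domain of its own in neurons and holds repeats that bind the splicing factor SF1.

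The singlets held 6267464 UMIs (unique molecular identifiers, each marking 1 captured molecule) in SplitA and 8638459 in SplitB. Genes other than the 13 mitochondrial protein-coding genes, called nuclear-encoded here, gave 5594924 and 7675908 of these, with a median per cell of 4855 in SplitA and 4945 in SplitB. The mitochondrial genes took 10.7% of the UMIs in SplitA and 11.1% in SplitB. There was 1 library for each readout, and both were counted over the same cell barcodes. Among adrenergic markers that define this line, PHOX2A, HAND2, GATA3, ISL1 and DBH had a UMI in 52.7% to 87.0% of the cells of a flask. TH was found in 0.763% and 0.748%. The leukocyte marker PTPRC and the endothelial marker PECAM1 had 0 UMIs, and COL1A1, COL3A1 and EPCAM were found in 0.848% to 2.43% of the cells. Close to the limits of the hashtag rule, 20 singlets had at least 150 counts of the other hashtag and 33 had a ratio of 3 to 4, and 3 multiplets lay above the limit with at most 200 counts of the lower hashtag.

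In GRCh38, MALAT1 (ENSG00000251562) lies on the plus strand at chr11:65497640-65508073, and NEAT1 (ENSG00000245532) lies on the same strand at chr11:65422774-65445540. MIAT (ENSG00000225783) is at chr22:26646411-26676475 on the plus strand. KCNQ1OT1 (ENSG00000269821) is at chr11:2597308-2700003 on the minus strand, inside and antisense to the potassium channel gene KCNQ1. MALAT1 has an antisense partner of its own, TALAM1, within its span. The setting for strand in the authors' counting is not given in the sources used here. The GENCODE 44 annotation lists a short NEAT1 transcript of 3441 exonic bases and a long one of 22743 bases, which start within the same promoter region, so a count per gene does not separate them.

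MALAT1 and the long NEAT1 transcript are not polyadenylated at their mature end. Their ends are made by RNase P, which cleaves ahead of a tRNA-like piece, and are protected by a triple helix of U-rich and A-rich stretches. The 2 genomic sequences around these ends are shown because the pair shares this form, with the words of at least 8 bases that both hold at like positions in capitals.
MALAT1, chr11:65506007-65506181, plus strand: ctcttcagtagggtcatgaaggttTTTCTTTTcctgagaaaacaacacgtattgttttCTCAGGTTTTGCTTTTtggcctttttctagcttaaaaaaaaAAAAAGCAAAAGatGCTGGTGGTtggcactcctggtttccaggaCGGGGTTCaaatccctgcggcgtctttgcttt
NEAT1, chr11:65445431-65445605, plus strand: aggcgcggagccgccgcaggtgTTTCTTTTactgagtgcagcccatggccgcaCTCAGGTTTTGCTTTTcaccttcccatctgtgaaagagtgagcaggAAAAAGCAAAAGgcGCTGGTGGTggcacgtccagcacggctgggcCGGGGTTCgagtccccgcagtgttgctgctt

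The 5 shared words had 8, 16, 12, 9 and 8 bases and covered 53 of the 175 bases of each window. The first 110 bases of a window end with the GCAAAA of the mature RNA, and the other 65 hold the tRNA-like side. The NEAT1 window runs 65 bases past the annotated end of the gene.

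A library primed with oligo-dT can also start at a run of A inside an RNA. MALAT1 holds 1 run of at least 10 A, the 13 A at chr11:65506098-65506110 that lie within its window above. NEAT1 holds 5 such runs, the longest of 22 A. The spans of MIAT and KCNQ1OT1 hold 6 and 18, with the longest at 24 and 29 A, although the canonical transcripts of both hold none. The longest runs are shown because they are places where unspliced or long forms of these RNAs could be primed, with the run in capitals.
KCNQ1OT1, chr11:2610687-2610775, minus strand: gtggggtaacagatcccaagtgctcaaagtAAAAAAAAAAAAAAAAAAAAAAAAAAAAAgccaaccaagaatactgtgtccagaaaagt
MIAT, chr22:26670573-26670656, plus strand: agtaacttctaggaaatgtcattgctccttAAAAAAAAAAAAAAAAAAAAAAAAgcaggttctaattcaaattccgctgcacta

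Runs of at least 10 A are found in 9.38% of 18866 canonical lncRNA transcripts and in 83.6% of the 67 that have at least 8000 bases. Both printed runs lie in an exon of an annotated transcript. The count table gives no position within a gene, so where the UMIs began was not measured, and levels are not compared between the members.

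MALAT1 had 94800 UMIs in SplitA and 127591 in SplitB, or 169 and 166 UMIs per 10000 nuclear-encoded UMIs. The 95% exact Poisson intervals were 168.36 to 170.52 and 165.31 to 167.14. These and all intervals here cover counting error only. The variance of MALAT1 between singlets was 31.8 times that of Poisson counts with the same depths in SplitA and 33.7 times in SplitB. Its intervals are thus far too narrow for the spread between cells. The median cell held 70 MALAT1 UMIs in SplitA and 69 in SplitB, and the highest held 332 and 374. MALAT1 was found in 98.9% and 98.2% of the cells.

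NEAT1 had 1725 and 2595 UMIs, or 3.08 (interval 2.94 to 3.23) and 3.38 (3.25 to 3.51) per 10000. The highest cell held 18 UMIs in SplitA and 20 in SplitB, with a median of 1 in both. NEAT1 was found in 65.6% and 65.8% of the cells, and in 19.0% and 19.7% once every cell was thinned to 500 nuclear-encoded UMIs, which left out 18 SplitA and 53 SplitB cells with fewer.

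KCNQ1OT1 had 747 and 901 UMIs, or 1.34 (1.24 to 1.43) and 1.17 (1.10 to 1.25) per 10000, and was found in 35.7% and 32.0% of the cells. After thinning it was found in 7.58% and 6.70%. MIAT had only 49 and 71 UMIs, or 0.0876 (0.0648 to 0.116) and 0.0925 (0.0722 to 0.117) per 10000, in 4.07% and 4.24% of the cells. No cell type that lacks these RNAs is known in the culture, so the share of cells that free RNA alone would give was not measured for any member, and for MIAT it was not told apart from expression.

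The members had like shares in the flasks. The log2 ratio of SplitA to SplitB was 0.03 for MALAT1, -0.13 for NEAT1, 0.19 for KCNQ1OT1 and -0.07 for MIAT. All ratios on the log2 scale were computed with 0.5 UMI added to each sum. Throughout, a gene was called when its share differed at least 1.5-fold, among 6219 genes with at least 200 UMIs in the singlets. MIAT has too few UMIs to enter, so 3 of the 4 members were evaluated. None of the 3 was called between the flasks, where 0.0161% of genes were called higher in SplitA and 0.129% lower. With 1 flask per hashtag, no test of this difference was possible, and the flasks serve as a pair of parallel descriptions.

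MALAT1, NEAT1 and KCNQ1OT1 took a larger share of the nuclear-encoded UMIs in cells with a high mitochondrial share. In SplitA, MALAT1 was at 151 per 10000 in the 680 cells under 10% mitochondrial UMIs (interval 149.79 to 152.16) and at 150 in the 167 cells of 10 to 15%. It was at 362 in the 139 cells of 15 to 30% and at 456 in the 193 cells over 30% (446.23 to 465.42). In SplitB, with 915, 215, 128 and 347 cells, the same classes were at 145, 150, 333 and 469. In both flasks the classes below 15% were nearly level and those above it were higher. With only these classes, where between their limits the rise began was not measured.

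**Figure D1:**
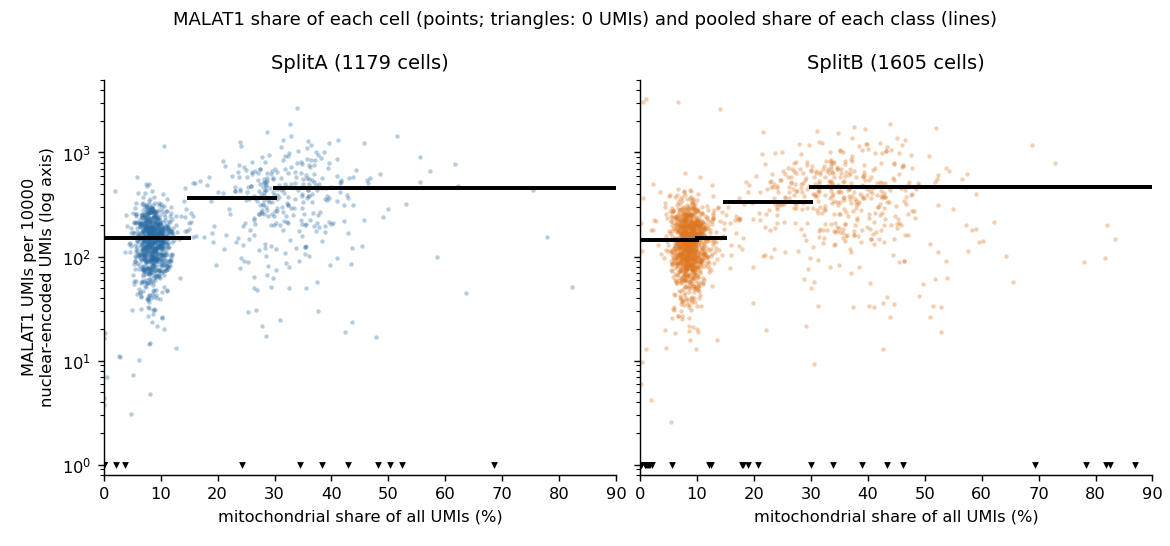
Each point is 1 cell, with the mitochondrial share of all UMIs in percent on the horizontal axis and MALAT1 UMIs per 10000 nuclear-encoded UMIs on a log axis, in 1 panel per flask, with triangles for cells of 0 UMIs and lines for the pooled share of each class. The lines stand at 151, 150, 362 and 456 in SplitA and at 145, 150, 333 and 469 in SplitB, and a scatter of cells with nearly no mitochondrial UMIs lies far below the rest.

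NEAT1 followed the same order of classes. Its share was 2.62, 2.80, 6.22 and 11.0 per 10000 in SplitA and 2.76, 3.78, 5.50 and 10.7 in SplitB. The NEAT1 intervals were 9.60 to 12.6 and 9.66 to 11.9 over 30%, and 2.47 to 2.78 and 2.63 to 2.90 under 10%. Over the singlets, the variance of NEAT1 between cells was 1.75 and 2.07 times that of Poisson counts with the same depths. Its intervals are too narrow for that spread. KCNQ1OT1 was at 1.15, 1.35, 2.29 and 4.13 in SplitA and at 0.995, 1.30, 2.09 and 3.05 in SplitB. MIAT had 2 UMIs in the SplitA cells over 30% and 8 in those of SplitB, too few to describe a change.

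Between cells over 30% and cells under 10%, MALAT1 was 3.02-fold higher in SplitA and 3.22-fold in SplitB. NEAT1 was 4.22-fold and 3.89-fold higher, and KCNQ1OT1 was 3.61-fold and 3.08-fold higher. All 3 evaluated members were called higher, but so were 44.5% of all genes, with 12.4% called lower. The median log2 ratio of all genes was 0.67 in SplitA and 0.66 in SplitB. Against these medians the members stood at 1.59 and 1.69 (MALAT1), 2.08 and 1.96 (NEAT1) and 1.85 and 1.62 (KCNQ1OT1). NEAT1 ranked 471 from the top of the 6219 genes, KCNQ1OT1 839 and MALAT1 876. A call that so many genes share is read as no result about the members. Among the 1555 genes with at least 1000 UMIs, 30.0% were called higher and 30.9% lower.

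**Figure D2:**
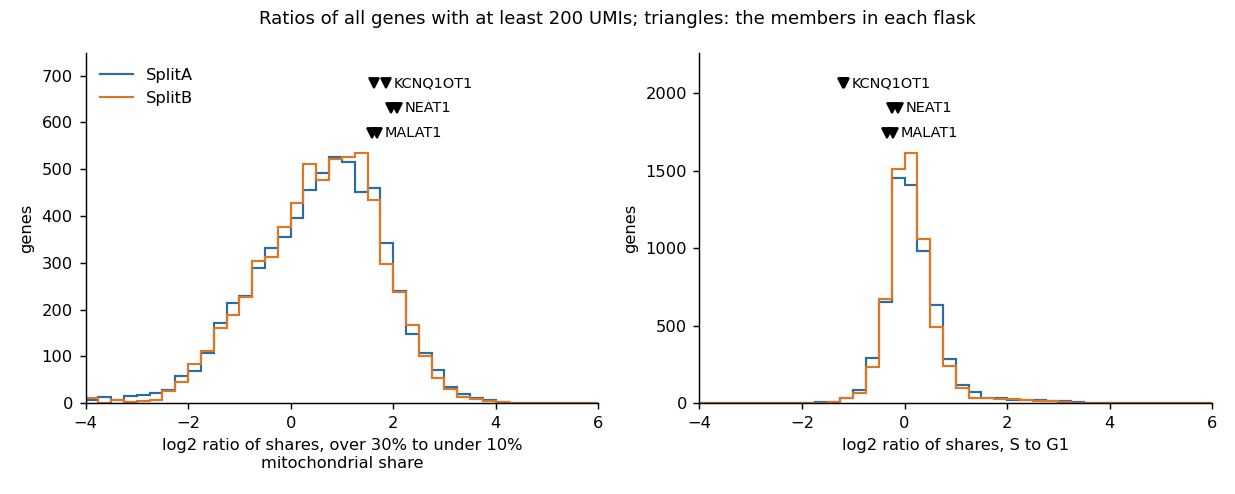
Histograms of the log2 ratio of all 6219 genes with at least 200 UMIs, as number of genes per bin, with 1 outline per flask and triangles for MALAT1, NEAT1 and KCNQ1OT1. The members lie to the right of the median of all genes, 0.67 in SplitA and 0.66 in SplitB, when cells over 30% are set against cells under 10%, and KCNQ1OT1 lies at the left edge when S is set against G1.

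Counted per cell and not as a share, the members were lower in the cells of high mitochondrial share. The mean was 92.1 MALAT1 UMIs per cell under 10% and 45.1 over 30% in SplitA, and 90.7 and 45.1 in SplitB, which is 2.04-fold and 2.01-fold lower. NEAT1 was at 1.60 and 1.09 UMIs per cell in SplitA and at 1.72 and 1.03 in SplitB, 1.46-fold and 1.67-fold lower. KCNQ1OT1 was at 0.703 and 0.409 in SplitA and at 0.621 and 0.294 in SplitB, 1.72-fold and 2.11-fold lower. All nuclear-encoded UMIs together were 6.16-fold lower in SplitA and 6.48-fold in SplitB. Their means were 6103 and 6241 under 10%, and 990 and 963 over 30%. The 87 cytosolic ribosomal protein genes were 18.1-fold and 19.0-fold lower. Mitochondrial UMIs per cell were slightly higher, at 592 against 531 in SplitA and 626 against 547 in SplitB. The larger share of the members went with fewer of their UMIs per cell, and the other nuclear-encoded UMIs were lower by a larger factor. Mitochondrial UMIs differed little between the classes, so the class over 30% holds cells with few nuclear-encoded UMIs by its definition. The classes are different cells, and no cause was tested.

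**Figure D3:**
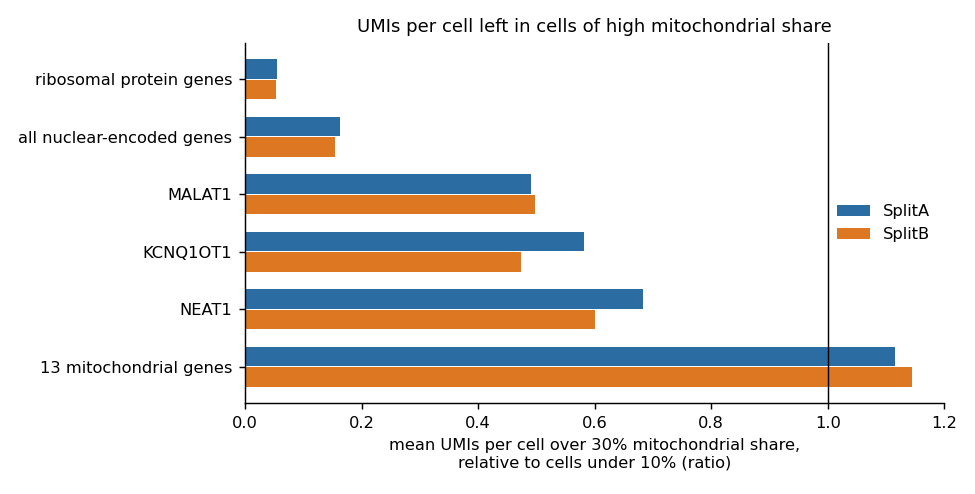
Bars give the mean UMIs per cell in cells over 30% mitochondrial share divided by that in cells under 10%, for each flask, on a linear axis that starts at 0. A line marks a ratio of 1, which only the mitochondrial genes passed. The ratios of the members shown were above those of nuclear-encoded genes as a whole and of ribosomal protein genes.

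The percent of cells with a UMI had the same order once every cell was thinned to the same number of UMIs. Such detection follows from the share of a gene within each cell, so it restates the shares above. It does not match the cells of the classes for their own depth. With every cell thinned to 500 nuclear-encoded UMIs, NEAT1 was found in 12.4% of SplitA cells under 10% and in 43.3% of those over 30%, and in 13.8% and 37.5% in SplitB. The cells over 30% deep enough for this were 178 of 193 in SplitA and 296 of 347 in SplitB. Without thinning the order was the other way, at 67.5% and 58.0% in SplitA and 69.2% and 51.9% in SplitB, where the cells over 30% had a mean of 963 nuclear-encoded UMIs and those under 10% had 6241. KCNQ1OT1 after thinning was found in 5.15% and 16.3% in SplitA, and in 3.83% and 14.2% in SplitB. MALAT1 was near its ceiling, at 96.6% and 97.2% in SplitA and at 96.1% and 99.3% in SplitB.

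Genes whose proteins work with these RNAs were described from lists. Of 15 paraspeckle proteins, 13 were called higher in cells over 30% and 0 lower, with a median log2 ratio of 1.49 in SplitA and 1.56 in SplitB, beside the 44.5% of all genes called higher and their medians of 0.67 and 0.66. HNRNPK, an RNA-binding protein of paraspeckles, stood at 2.45 and 2.37. SFPQ and NONO, which bind NEAT1 as a pair, stood at 1.77 and 2.02 and at 1.16 and 1.02. HNRNPUL1 and NUDT21 were not called. Of 15 nuclear speckle and SR proteins, 14 were called higher, with medians of 1.32 and 1.31 beside the same background, led by the splicing factor SF3B1 at 2.89 and 2.48 and the speckle scaffold SON at 2.48 and 2.46. The exception was the splicing factor SRSF3 at -0.10 and -0.08. Of 3 proteins that bind MIAT, SF1 (1.30 and 1.27) and CELF3 (1.34 and 1.03) were called higher and QKI (0.35 and 0.86) was not.

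Other lncRNAs did not all move like the members. FTX, a nuclear lncRNA of the X-inactivation region, was called higher at 2.00 in SplitA and 2.35 in SplitB, and JPX from the same region stood at 0.01 and 0.13. FTX and JPX were the only 2 of 8 further nuclear lncRNAs with enough UMIs, and TUG1, LINC-PINT and SNHG14 were not analysed here. Of 3 cytoplasmic lncRNAs evaluated, ZFAS1 (-2.67 and -2.09) and EPB41L4A-AS1 (-1.69 and -1.29) were called lower. Both are host transcripts of small nucleolar RNAs. NORAD, which binds Pumilio proteins in the cytoplasm, stood at 0.14 and -0.90. GAS5 and DANCR were not analysed here. Among the 83 ribosomal protein genes evaluated, 78 were called lower and 0 higher, with medians of -1.63 and -1.62.

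The neighbours of the members on their chromosomes are given beside the 44.5% of all genes called higher and the 12.4% called lower. Around MALAT1 and NEAT1, 5 of 10 genes were evaluated. Those called higher numbered 4, among them DPF2, EHBP1L1 and LTBP3, and FAM89B was called lower at -3.99 and -2.08. In the imprinted domain of KCNQ1OT1, 4 of 9 were evaluated. The histone chaperone gene NAP1L4 was called higher at 0.94 and 1.30, and CDKN1C was called lower at -1.0 and -1.05. TSSC4 and CD81 were not called. Of 7 neighbours of MIAT only HPS4 could be evaluated, and it was called higher at 0.82 and 1.61.

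Depth and mitochondrial share moved together. The median mitochondrial share in SplitA was 35.4% in cells under 1000 nuclear-encoded UMIs and 30.0% from 1000 to under 2000, against 8.75%, 8.47% and 8.52% in the deeper classes. MALAT1 in SplitA was at 407, 433, 166, 156 and 144 per 10000 from the shallowest to the deepest class, and at 444, 455, 169, 152 and 136 in SplitB. NEAT1 was at 10.2, 8.45, 2.82, 2.63 and 2.88 in SplitA and at 9.67, 9.26, 3.07, 2.89 and 3.20 in SplitB. KCNQ1OT1 was at 3.68, 3.44, 1.17, 1.24 and 1.12 in SplitA and at 3.98, 2.39, 0.871, 0.978 and 1.26 in SplitB. Above 2000 UMIs these pooled values of MALAT1 were lower in the deeper classes and those of NEAT1 were not, but the classes hold cells of different mitochondrial share. Within cells under 10% mitochondrial share MALAT1 had no such order, at 134, 157 and 143 per 10000 in the 3 classes from 2000 UMIs up in SplitA and at 131, 152 and 133 in SplitB.

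**Figure D4:**
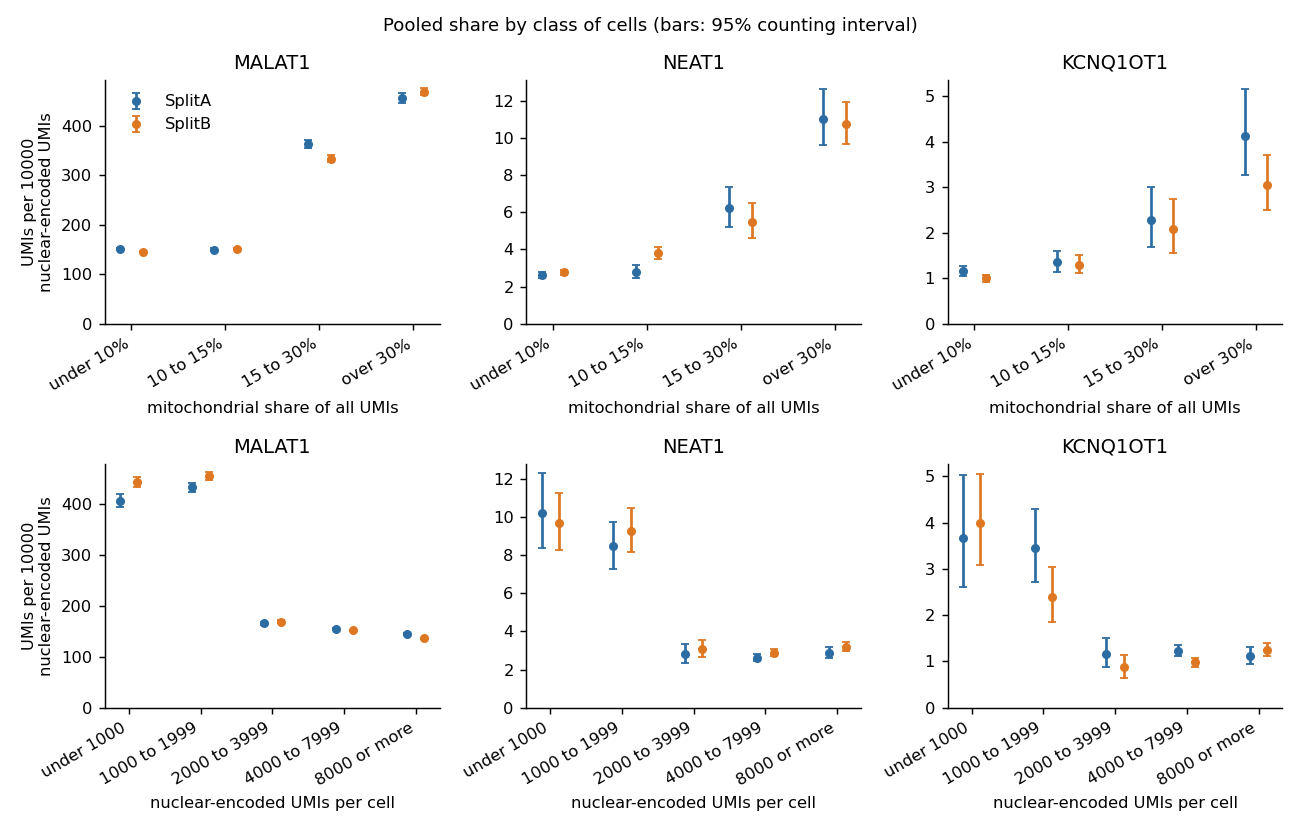
Points give UMIs per 10000 nuclear-encoded UMIs, pooled over the cells of a class of mitochondrial share or of depth, with bars for the 95% exact Poisson interval, for each flask. MALAT1, NEAT1 and KCNQ1OT1 have their highest points over 30% mitochondrial share and under 2000 UMIs, with SplitA and SplitB side by side.

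Cells under 2000 UMIs had 2.79-fold and 3.07-fold more MALAT1 per 10000 than cells of 4000 or more, 3.34-fold and 3.14-fold more NEAT1 and 2.94-fold and 2.78-fold more KCNQ1OT1. All 3 were called higher, as were 42.7% of genes, with 11.0% called lower. In the class from 2000 to under 4000 UMIs the mitochondrial share still went with MALAT1. There, MALAT1 in SplitA was at 134 in the 97 cells under 10%, at 162 in 29 cells of 10 to 15% and at 314 in 23 cells of 15 to 30%. In SplitB it was at 131 in 108 cells, 162 in 39 and 323 in 23. NEAT1 in these cells was at 2.07, 3.09 and 5.38 in SplitA and at 2.45, 4.04 and 3.86 in SplitB, where the highest class was not the last. From 4000 to under 8000 UMIs, the MALAT1 share of cells under 10%, given above, was about that of all cells of the class.

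Depth below 2000 UMIs could hardly be described at a low mitochondrial share. Cells under both 2000 UMIs and 10% numbered only 9 in SplitA and 28 in SplitB, and 4 and 14 of them belong to the cells under 2% described next. They held 9 MALAT1 UMIs of 10866 in SplitA and 811 of 29637 in SplitB, where 2 cells gave 413 of the 811. Against cells of 4000 or more the log2 ratio was -4.13 in SplitA and 0.91 in SplitB, opposite in sign. NEAT1 had 1 and 3 UMIs in them and KCNQ1OT1 had 0 and 2, too few for a ratio. Across the 671 SplitA and 887 SplitB cells under 10% with at least 2000 UMIs, the MALAT1 share had a Spearman correlation with the mitochondrial share of 0.03 and 0.02, against 0.39 and 0.40 over all 1179 and 1605 singlets. These coefficients describe cells of 1 library with shared depth. They are given as a description and are no finding.

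A group of cells with almost no mitochondrial UMIs, set at under 2% after the values were seen, stood apart. Of the 9 such cells in SplitA, 8 held at most 3 MALAT1 UMIs, and the other held 125. Of the 21 in SplitB, 15 held at most 1, 1 held 6 and 5 held 114 to 235. The 23 cells with at most 3 had 546 to 2751 nuclear-encoded UMIs in SplitA and 523 to 6545 in SplitB. Together the 8 SplitA cells had 7 MALAT1 UMIs of 15659, where the share of cells under 10% would give 236. The 15 SplitB cells had 4 of 27885, where it would give 405. NEAT1 was at 0 UMIs in the first and 1 in the second, against 4.11 and 7.70 at the share of cells under 10%. Pooled, ribosomal protein genes took 40.0% and 37.2% of the nuclear-encoded UMIs of these cells, against 41.1% and 40.8% in cells under 10%. Single cells were not alike, at 27.1% to 48.0% among the 8 and 17.8% to 49.2% among the 15. The cell at 49.2% was also the deepest, with 6545 nuclear-encoded UMIs. The median own hashtag of the 8 and of the 15 cells was 282 and 315 counts, against 1028 and 1030. The 23 were picked for their low MALAT1 count, so these values are a description of them. The part of free RNA and of the low hashtag count in this pattern was not tested.

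The other tail was short. A MALAT1 share over 15% was seen in 3 SplitA and 11 SplitB cells, which held 517 to 1570 nuclear-encoded UMIs, and reached 27.0% and 32.6%. Of the 11 in SplitB, 3 had a mitochondrial share under 10%.

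The hashtag count was read from a second library and gave another axis. From the lowest to the highest quartile of a cell's own hashtag, MALAT1 was at 174, 173, 175 and 162 per 10000 in SplitA and at 189, 171, 165 and 155 in SplitB. Within cells under 10% mitochondrial share the quartiles were at 138, 151, 156 and 154 in SplitA and at 147, 146, 149 and 141 in SplitB, with no common order. NEAT1 within these cells was at 2.19, 2.36, 2.32 and 3.16 in SplitA and at 2.50, 2.61, 2.43 and 3.23 in SplitB, highest in the top quartile of both. Cells over 30% had a lower median hashtag, 757 in SplitA and 705 in SplitB, against 1028 and 1030 in cells under 10%. Its part in the results by mitochondrial share was not tested.

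The cell cycle was described in the 896 SplitA and 1180 SplitB singlets that passed the filters of the study. Phases were called from expression of S and G2/M genes, with 377, 273 and 246 SplitA cells and 505, 346 and 329 SplitB cells in G1, S and G2M. KCNQ1OT1 differed most among the members. In SplitA its share was 1.67 per 10000 for G1 cells, with an interval of 1.5 to 1.85, then 0.723 for S (0.594 to 0.871) and 1.06 for G2M (0.909 to 1.23). In SplitB the shares were 1.44 (1.31 to 1.58), 0.630 (0.525 to 0.749) and 0.967 (0.840 to 1.11). In both flasks G1 was highest and S lowest. The intervals of the phases cover counting error only. The spread of KCNQ1OT1 between cells was wider than counting gives, as described below, so they are too narrow for that spread. The difference between S and G1 was 2.30-fold in SplitA and 2.28-fold in SplitB, or -1.20 and -1.19 on the log2 scale.

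KCNQ1OT1 was the 1 of 3 evaluated members called lower in S, where 1.78% of all genes were called lower and 8.60% higher. It ranked 6174 from the top of 6219. It was seen in 48.5% of SplitA cells in G1, 26.0% in S and 39.4% in G2M, and in 43.2%, 26.0% and 35.3% in SplitB. Median depth was almost the same in G1 and S, at 5320 and 5365 nuclear-encoded UMIs in SplitA and at 5573 and 5610 in SplitB, and higher in G2M, at 6431 and 6438. Within cells of 4000 to under 8000 UMIs the shares were 1.72, 0.749 and 0.970 in SplitA and 1.38, 0.549 and 0.806 in SplitB, in the same order.

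CDKN1C, the cyclin-dependent kinase inhibitor in the domain of KCNQ1OT1, was also called lower in S, at -1.5 and -1.88, and in G2M at -0.76 and -1.58. NAP1L4 from the far side of the domain was called higher, at 0.73 and 0.66 in S and 0.95 and 0.69 in G2M. TSSC4 and CD81 were not called in either phase. KCNQ1, on the opposite strand of KCNQ1OT1, had only 53 and 72 UMIs and was not evaluated, with log2 ratios of 0.42 and 0.03 in S.

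**Figure D5:**
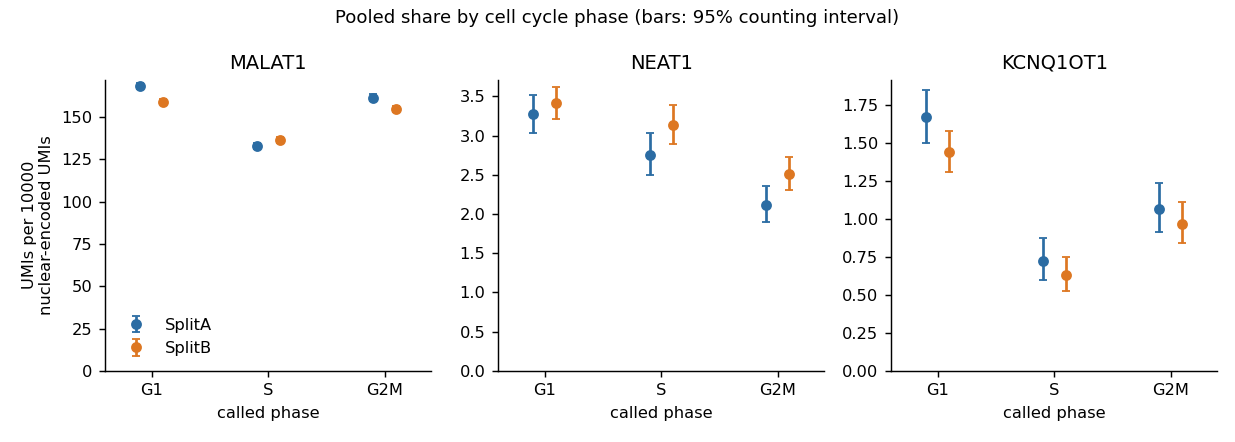
Points give UMIs per 10000 nuclear-encoded UMIs pooled over cells called G1, S and G2M, with bars for the 95% exact Poisson interval, for SplitA and SplitB. KCNQ1OT1 is lowest in S (0.723 and 0.630), NEAT1 is lowest in G2M (2.12 and 2.51), and MALAT1 is lowest in S (133 and 136).

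MALAT1 and NEAT1 varied less with phase. MALAT1 was at 168, 133 and 161 per 10000 in G1, S and G2M of SplitA and at 159, 136 and 155 in SplitB. Its log2 ratio of S to G1 was -0.34 in SplitA and -0.22 in SplitB. NEAT1 was at 3.27, 2.76 and 2.12 in SplitA and at 3.42, 3.13 and 2.51 in SplitB, and its log2 ratio of G2M to G1 was -0.63 and -0.44. Neither passed 1.5-fold in both flasks in either comparison, and none of the 3 members was called in G2M, where 2.96% of genes were called lower and 12.1% higher. KCNQ1OT1 stood there at -0.65 and -0.57. Both NEAT1 and KCNQ1OT1 passed 1.5-fold in SplitA and not in SplitB. From SplitA alone 2 of the 3 would be called lower, beside 6.45% of all genes. MIAT had 25, 10 and 13 UMIs in G1, S and G2M of SplitA and 37, 12 and 12 in SplitB.

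The genes of the protein partners were also described by phase. Of the 15 paraspeckle proteins, 2 were called higher in S, among them HNRNPR, beside 8.60% of all genes, and 6 were called higher in G2M, beside 12.1%, among them HNRNPH3, HNRNPR, HNRNPUL1, NUDT21 and SFPQ. Of the 15 speckle and SR proteins, SRRM1, SRSF1, SRSF2 and SRSF7 were called higher in S, and SRSF1, SRSF6 and SRSF7 in G2M. Median log2 ratios in G2M were 0.64 and 0.62 for the paraspeckle list and 0.28 and 0.37 for the speckle list. The medians of all genes were 0.15 and 0.13, and NEAT1 was on the lower side. QKI was called higher in G2M, at 1.11 and 1.02. None of the cytoplasmic lncRNAs evaluated was called in either phase.

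Among cells under 10% mitochondrial share with at least 2000 UMIs, the spread of MALAT1 between cells was far above that of counting. Its variance was 28.2 times that of Poisson counts with the same depths in SplitA and 26.1 times in SplitB, ranks 3 and 7 of 1555 genes with at least 1000 UMIs, whose median was 1.15. NEAT1 was at 1.77 and 1.79 and KCNQ1OT1 at 2.07 and 1.79. This measure grows with the level of a gene, so it orders genes by variance and mean at once. Relative to the mean, the spread beyond counting (a coefficient of variation) was smallest for MALAT1, at 0.54 and 0.52, against 0.69 and 0.67 for NEAT1 and 1.22 and 1.11 for KCNQ1OT1. On the first measure, the variance relative to Poisson counts, MIAT was at 0.987 and 0.977, near the value of counting alone. With so few UMIs that measure could hardly show a spread of MIAT between cells.

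The pair MALAT1 and NEAT1 had a Pearson correlation of log-normalised levels of 0.25 over 1179 SplitA singlets and 0.28 over 1605 SplitB singlets. Among the cells under 10% with at least 2000 UMIs it was 0.15 (671 cells) and 0.13 (887 cells). MALAT1 and KCNQ1OT1 were at 0.16 and 0.16 over singlets and at 0.12 and 0.09 in the narrower set. NEAT1 and KCNQ1OT1 were at 0.12 and 0.08, then at 0.05 and 0.03. The coefficients of all 3 pairs were smaller in the narrower set, in which mitochondrial share and depth vary less.

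In the narrower set, the genes whose levels went most closely with MALAT1 in both flasks were SOX4, REX1BD, H1-10, NEAT1 and NSD3, out of 1555. SOX4, a neural transcription factor, led at 0.16 in SplitA and 0.19 in SplitB. The most negative were PTTG1, STMN1, TUBA1B, ACTB and H2AZ1, among which the tubulin TUBA1B stood at -0.26 and -0.19 and the mitotic securin PTTG1 at -0.20 and -0.19. For NEAT1 the highest were CHGB, MALAT1, DDC, S100A11 and MXD4, with the granin CHGB at 0.23 and 0.13. The lowest were HMGB2, STMN1, H2AZ1, HMGB1 and UBE2C, with the chromatin protein HMGB2 at -0.16 and -0.17. For KCNQ1OT1, added after values were seen, the highest were CHGA (0.21 and 0.23), DLK1 (0.21 and 0.14), CDKN1C (0.23 and 0.14), GNAS (0.25 and 0.14) and CHGB, and the lowest were PTMA, UBE2T, DUT, RPL22L1 and CENPU, led by PTMA at -0.13 and -0.13. All coefficients were weak, over cells of 1 library that share depth, and are given as a description.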

How the data were processed

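The authors deposited raw UMI counts per Ensembl gene and cell barcode, with the counts of 2 hashtags, from a 10x 3′ CITE-seq experiment. Per the submitters' processing notes, reads were aligned to hg38 (GRCh38) with Cell Ranger 4.0.0 and STAR 2.7. The gene annotation release and the strand setting are not given in the sources used here. No normalised values were used.

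Ensembl identifiers were matched to gene symbols for 24935 genes, and positions and sequences came from GENCODE release 44 on GRCh38. Shares are sums of UMIs over the cells of a class, per 10000 UMIs of all genes but the 13 mitochondrial protein-coding genes. Intervals are exact Poisson intervals at 95% and cover counting error only. PCR duplicates are merged by UMI. With 1 flask per hashtag there was no test, and no p-value is given. Classes were set by mitochondrial share of all UMIs (10, 15 and 30%), nuclear-encoded UMIs (1000, 2000, 4000 and 8000) and quartiles of the own hashtag. Phases were called with CellCycleScoring of Seurat 5.3.0 in R 4.3.3 in the 2076 singlets past the filters of the study (over 500 UMIs, over 300 genes, log10 genes over log10 UMIs above 0.75, under 15% on the 9 mitochondrial genes found by name, at least 1000 genes). The filters were applied here to Ensembl genes and in the study's code to gene symbols, so the cells kept can differ from those of the study. Cells with both hashtags were left out as multiplets. Doublets within a flask carry 1 hashtag and were not removed by a caller.

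A gene was called at 1.5-fold in the same direction in both flasks, among genes with at least 200 UMIs. Named genes were the members, the genes of lists of partners, neighbours and other lncRNAs, and for MALAT1 and NEAT1 the 5 highest and 5 lowest by Pearson correlation among genes with at least 1000 UMIs. The same for KCNQ1OT1 was added after its values were seen. Members and lists were chosen with earlier results of these data known. Some genes of the lists count in the totals but are not reported here by name. The fold computation was tested on simulated counts. Other settings were tried for the denominator, filters, thinning, class limits, phase lists and each flask alone. The scripts ran under pandas 2.3.3, scipy 1.17.1, matplotlib 3.10.9, numpy 2.4.6 and Python 3.11.15.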

Additional observations from a re-analysis of the deposited data

How the results depend on the processing

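Of 198 values under another setting, 117 stayed within 1 SD between the flasks (counts of genes, within 1.5 times), 78 moved further and 3 changed sign. Values with 1 flask left out are among the 198. For shares, ratios and correlations these lie within 1 SD by construction, so the 117 are no measure of stability. Values are means of the flasks. For MALAT1 per 10000 the value of 167.8 was 153.8 in cells past the study's filters, 149.5 over all UMIs, 230.7 as a mean of single cells, and 230.8 and 201.1 when cells were thinned to 500 and 1000 UMIs. NEAT1 at 3.23 was then 2.92, 2.88, 4.62, 4.63 and 3.92. Thinning leaves out cells with too few UMIs, 149 in SplitA and 258 in SplitB at 1000. The log2 ratio of MALAT1 between cells over 30% and under 10% (1.64) was 1.06 over all UMIs, 1.54 as a mean of cells, 1.55 with 9 mitochondrial genes (15% or more against under 4%) and 1.78 in cells of 1000 to under 2000 UMIs with over 30% set against under 15%. For NEAT1 (2.02) it was 1.44 over all UMIs, 1.88 with 9 genes and 4.16 in the last of these. Only 5 SplitA and 14 SplitB cells form that low class, 3 and 7 of them under 2%, and the flasks differed, with MALAT1 1.85-fold and 6.35-fold higher. NEAT1 there had 1 and 0 UMIs, so its ratio depends on the 0.5 added. For depth, MALAT1 (1.55) was 1.09 over all UMIs, 1.43 past the filters and -1.61 in cells under 10% mitochondrial share. NEAT1 (1.70) was 1.23, 1.56 and -1.10, and KCNQ1OT1 (1.52) was 0.71 past the filters (1.57-fold and 1.70-fold, against 2.94 and 2.78) and -0.82 in cells under 10%. These reversals rest on 9 and 28 shallow cells with few member UMIs, and for MALAT1 the flasks were opposite, at -4.13 and 0.91.

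In S, MALAT1 (-0.28) was -0.13 as a mean of cells and -0.18 with phases called on cells thinned to 2000 UMIs. Thinning served only the phase calls there, and the member counts were not thinned. NEAT1 in S (-0.18) was -0.075 as a mean of cells. In G2M, MALAT1 (-0.05) was -0.0047 as a mean of cells and -0.028 in cells of 4000 to under 8000 UMIs. KCNQ1OT1 in S (-1.19) was -1.20 over all UMIs, -1.05 as a mean of cells and -1.26 in cells of 4000 to under 8000 UMIs. It was -1.06 with the updated gene list and -0.93 with phases called on thinned cells. KCNQ1OT1 stayed past 1.5-fold in both flasks in each of these settings. The correlation of MALAT1 with NEAT1 over singlets (0.27) was 0.154 past the filters and 0.0936 thinned to 2000 UMIs, and in the narrower set (0.14) it was 0.119 and 0.0719. Over singlets the thinned value leaves out the 312 SplitA and 460 SplitB cells under 2000 nuclear-encoded UMIs. It thus differs from 0.27 in its cells as well as in thinning.

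Counts of genes past the limit moved with the minimum of UMIs and the fold. With a minimum of 1000 UMIs, 466 were higher and 481 lower by mitochondrial share, 471 and 430 by depth, 113 and 22 in S, and 152 and 44 in G2M. With a minimum of 1 UMI, and so 18001 genes, 10843 were higher by mitochondrial share, 10007 by depth, 1800 in S and 1877 in G2M. Those lower were 1083 in S and 1257 in G2M. At so few UMIs the 0.5 added to each sum can set the ratio. TRPM5, from the domain of KCNQ1OT1, had 0 UMIs in SplitA and 1 in SplitB and stood at 4.44 and 5.68 by mitochondrial share. The counts at this minimum are thus no result about genes. At a ratio of 2, 441 were lower by mitochondrial share, 1749 higher and 359 lower by depth, 217 and 25 in S, and 311 and 43 in G2M.

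With either flask left out, MALAT1 per 10000 was 166.2 to 169.4 and NEAT1 3.08 to 3.38. Log2 ratios by mitochondrial share were 1.59 to 1.69 and 1.96 to 2.08, by depth 1.48 to 1.62 and 1.65 to 1.74, in S -0.34 to -0.22 and -0.24 to -0.12, in G2M -0.06 to -0.04 and -0.63 to -0.44, and from the lowest to the highest hashtag quartile 0.10 to 0.29 and -0.07 to -0.0059, each for MALAT1 and then NEAT1. KCNQ1OT1 in S was -1.20 to -1.19. The correlations were 0.254 to 0.280 and 0.131 to 0.149. A single flask also gave more genes past the limit, since only 1 ratio has to pass, with 3256 to 3287 higher and 1059 to 1141 lower by mitochondrial share, 3109 to 3151 and 948 to 1039 by depth, 791 to 985 and 235 to 309 in S, and 1101 to 1282 and 342 to 401 in G2M.

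No paired analysis was possible because there is 1 flask per hashtag and no test. Depth limits MIAT (49 and 71 UMIs) and cells under 500 nuclear-encoded UMIs. The background of free RNA could not be measured, and doublets within a flask were not removed.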

Other observations

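The 95 multiplets entered the comparisons only as 1 of the other settings. In 37 of them the lower hashtag was within the limit, and the ratio set them aside. Their MALAT1 share was 168 per 10000 nuclear-encoded UMIs (interval 164.48 to 171.46), NEAT1 was at 3.70 (3.20 to 4.25), KCNQ1OT1 at 1.69 (1.36 to 2.08) and MIAT at 0.169 (0.0772 to 0.320), the last from 9 UMIs. Their median depth was 6024 nuclear-encoded UMIs, against 4855 in SplitA and 4945 in SplitB.

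Cells with a MALAT1 share under 0.2%, a limit set after the values were seen, numbered 30 of 1179 in SplitA (2.54%, exact binomial interval 1.72 to 3.61%) and 46 of 1605 in SplitB (2.87%, 2.11 to 3.8%). They were more than the cells with almost no mitochondrial UMIs. Of the 193 SplitA cells over 30% mitochondrial share, 9 were under this limit, with a median of 558 nuclear-encoded UMIs, and of the 347 in SplitB, 13 were, with a median of 398. In SplitA, 1 cell under the limit held 25009 nuclear-encoded UMIs and 14110 counts of its hashtag, the deepest SplitA cell, with 10 NEAT1 and 4 KCNQ1OT1 UMIs. In SplitB, 1 cell of 6545 nuclear-encoded UMIs, of which 49.2% fell on ribosomal protein genes, held 0 MALAT1 and 1 NEAT1 UMI.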
